A study of Mus musculus with 4 samples.

Results

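Genes of mitosis were examined for binding of YAP, a transcriptional co-activator that reaches DNA mainly through TEAD proteins, in mouse epidermis with and without the clock activator BMAL1. The 33 genes are a list of names fixed by their part in mitosis, with no binding value in the rule, and were chosen with earlier results of these data known. They are a small set of the 21631 protein-coding genes in the gene table. Of all YAP peaks, 44 of 36576 in wild type (WT) and 23 of 14879 in knockout (KO) were linked to them. A peak was linked when its summit, its highest point, lay inside the gene span on build mm10, or within 100 kb of it with that gene as the nearest protein-coding gene.

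Sites of YAP came from chromatin immunoprecipitation followed by sequencing (ChIP-seq) of epidermal cells of adult mice aged 18 to 25 weeks, taken at Zeitgeber time 4 h. The 2 ChIP groups are Bmal1 WT and Bmal1 KO, the latter also written Bmal1cKO in the labels, with 1 peak list each, and the 2 input samples of the series have no file analysed here. The sources used here do not give the cells in which Bmal1 was deleted, the Cre driver or the number of animals behind each list. Each list carries the word pooled in its peak names, which leaves the values below without replicates and without a test. YAP peaks do not read out the Bmal1 deletion, so the genotype labels were not checked. As a check of the tissue, 10 of 10 keratinocyte marker genes had a linked WT peak, against 53.2% of all protein-coding genes. The counts were 2 of 8 fibroblast, 2 of 8 immune, 2 of 6 endothelial and 6 of 7 melanocyte markers. The exact interval of the keratinocyte share (69.15 to 100) overlaps those of melanocyte (42.1 to 99.6) and endothelial markers (4.3 to 77.7). The check therefore does not separate keratinocytes from melanocytes or endothelial cells, and these lists are small. A peak near a marker does not measure its RNA. In bulk chromatin, binding in fewer cells and less binding per cell cannot be told apart, and the share of dividing cells in each list was not measured.

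Mitosis is driven by the kinase CDK1 bound to A-type and B-type cyclins, and most genes needed for it are transcribed together late in the cell cycle. Their promoters are known for a short element, the CHR, read by the MuvB complex with B-MYB and FOXM1, and for boxes bound by the factor NF-Y. In human breast epithelial cells, YAP bound at distant enhancers has been linked to mitotic genes through B-MYB. In the epidermis, dividing cells lie in the basal layer and the hair follicle.

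The promoters below are those of members with a linked WT summit in the promoter window. The windows run from 250 bases before the start of the gene to 50 after it, on the gene's own strand, 5′ to 3′, from RefSeq on build GRCm38.p6, the assembly called mm10. Capitals mark every match to 5 motifs, searched on both strands. The motifs were the CHR (TTTGAA), the NF-Y box (CCAAT), a TEAD motif (GGAATG), an AP-1 motif (TGANTCA) and an E-box (CACGTG), the letters that BMAL1 with CLOCK is known to bind. Of the 33 members, 27 had a window in the table, Ect2 and Prc1 with 2 each. Of these members, 4 had a linked WT summit in the window. These were Kif11 (chr19:37376132-37376431, plus strand), Birc5 (chr11:117848987-117849286, plus strand), Ncaph (chr2:127133905-127134204, minus strand) and Mybl2 (chr2:163054385-163054684, plus strand).
Kif11: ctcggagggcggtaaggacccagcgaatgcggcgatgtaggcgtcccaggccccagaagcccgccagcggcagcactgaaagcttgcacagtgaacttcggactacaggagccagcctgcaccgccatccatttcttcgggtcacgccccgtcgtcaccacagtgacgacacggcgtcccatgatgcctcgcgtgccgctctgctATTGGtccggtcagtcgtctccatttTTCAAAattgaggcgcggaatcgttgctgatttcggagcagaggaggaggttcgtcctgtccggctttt
Birc5: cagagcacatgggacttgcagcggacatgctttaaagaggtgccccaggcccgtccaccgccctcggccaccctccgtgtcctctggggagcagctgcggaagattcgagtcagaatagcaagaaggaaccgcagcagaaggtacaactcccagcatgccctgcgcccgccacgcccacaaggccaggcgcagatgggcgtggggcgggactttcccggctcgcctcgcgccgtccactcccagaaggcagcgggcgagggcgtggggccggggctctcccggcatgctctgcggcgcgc
Ncaph: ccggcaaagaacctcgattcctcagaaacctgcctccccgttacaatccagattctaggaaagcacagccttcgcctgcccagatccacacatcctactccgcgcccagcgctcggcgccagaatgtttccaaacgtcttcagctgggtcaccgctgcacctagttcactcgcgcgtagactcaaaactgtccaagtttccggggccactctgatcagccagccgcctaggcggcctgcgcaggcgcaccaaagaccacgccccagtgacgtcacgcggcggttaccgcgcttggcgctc
Mybl2: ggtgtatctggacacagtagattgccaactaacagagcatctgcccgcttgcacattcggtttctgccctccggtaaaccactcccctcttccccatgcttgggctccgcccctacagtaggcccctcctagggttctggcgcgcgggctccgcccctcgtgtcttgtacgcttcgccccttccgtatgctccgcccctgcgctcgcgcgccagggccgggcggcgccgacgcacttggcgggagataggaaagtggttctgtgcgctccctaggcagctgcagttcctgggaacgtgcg

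In the Kif11 promoter, an NF-Y box began at -45 and a CHR at -19 from the start, and the YAP summit lay at -102. The other three windows held none of the 5 motifs in these letters, with summits at -58 for Birc5, -236 for Ncaph and 31 for Mybl2. No match says only that these letters are not in this window. Linked KO summits also fell in the windows of Mad2l1, at 2, and of Ect2, at -222. Those windows held no WT summit and are not printed. Stretches from -100 to 49 are also shown for 4 members of the entry machinery with no linked YAP peak, picked after their motifs were seen. These are Cdk1 (chr10:69352863-69353012, minus strand), Ccnb2 (chr9:70421505-70421654, minus strand), Plk1 (chr7:122159335-122159484, plus strand) and Aurka (chr2:172370521-172370670, minus strand).
Cdk1: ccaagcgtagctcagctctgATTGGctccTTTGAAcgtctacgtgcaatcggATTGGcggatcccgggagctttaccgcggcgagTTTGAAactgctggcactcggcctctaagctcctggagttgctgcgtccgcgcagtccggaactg
Ccnb2: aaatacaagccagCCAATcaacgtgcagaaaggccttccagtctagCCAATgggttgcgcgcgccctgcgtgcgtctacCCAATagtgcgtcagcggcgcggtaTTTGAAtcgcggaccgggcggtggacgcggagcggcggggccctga
Plk1: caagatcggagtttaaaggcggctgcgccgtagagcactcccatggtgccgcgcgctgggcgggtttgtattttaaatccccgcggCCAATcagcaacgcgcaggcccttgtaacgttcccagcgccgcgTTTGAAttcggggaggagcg
Aurka: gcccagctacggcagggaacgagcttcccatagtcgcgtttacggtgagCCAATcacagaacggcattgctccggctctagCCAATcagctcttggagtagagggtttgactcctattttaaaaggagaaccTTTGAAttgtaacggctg

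Each of these stretches holds a CHR and an NF-Y box, with more than one NF-Y box in Cdk1, Ccnb2 and Aurka and a single one in Plk1. Because of how they were picked, they give no contrast to the promoters above. Among members with a peak near the start, 6 held both elements in the window. Bub1 and Cenpe, with no linked peak, held no CHR there. In Cdk1, NF-Y boxes began at -80 and -48 and CHR matches at -71 and -15. In Ccnb2 a CHR began at 4, in Plk1 at 30 and in Aurka at 32. The CHR was found in 19 of the 27 members with a window (70.4%), against 18.0% of the 17274 protein-coding genes with a window. The NF-Y box was found in 22 (81.5%), against 42.7%. Both together were found in 18 members (66.7%), against 8.45% of all genes. Both elements were thus in a larger share of members with a window than of all genes with one. The TEAD motif was found in 2 members (7.41%), Mad2l1 and Nek2, against 15.4% of all genes. An AP-1 motif was found in 0 of 27, against 8.19%. An E-box was found in 3, Anln, Espl1 and Ttk (11.1%), against 9.02%. These counts are small, and the E-box share was above that of all genes. No difference from all genes was tested. Among the 3374 genes with a WT YAP summit in the window, shares were 13.7% for the CHR, 42.4% for the NF-Y box, 18.6% for TEAD, 7.53% for AP-1 and 14.6% for the E-box. Of the 12 members with a window and a peak near the start, 7 held a CHR and 7 an NF-Y box, and of the other 15, 12 held a CHR and 15 an NF-Y box. A match is a description of the letters and not a measured site.

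**Figure D1:**
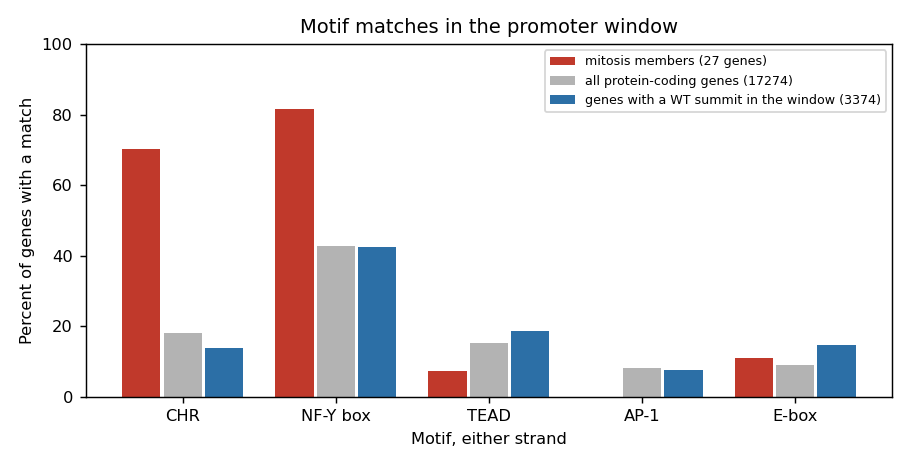
Percent of genes with a match to each motif (y axis) in the promoter window, for the 27 mitosis members with a window, all 17274 protein-coding genes and the 3374 genes with a WT summit in the window. The CHR and NF-Y bars of the members stand at 70.4% and 81.5%, above the 18.0% and 42.7% of all genes, while their TEAD bar is at 7.41% and their AP-1 bar at 0.

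A linked WT peak was found for 22 of 33 members (66.7%, 95% exact interval 48.2 to 82.0), against 53.2% of all protein-coding genes. In KO, 14 members had a linked peak (42.4%, 25.5 to 60.8), against 30.1% of all genes. Both intervals include the share of all genes. The intervals cover counting error only. Among the members, 8 had 1 WT peak, 7 had 2, 6 had 3 and Ttk alone had 4. The strength of a peak is given below as summit reads, the whole number of ChIP reads over the summit, solved from the fold and p-value that the authors deposited. Evenly spread reads gave a background of 9.63 in both lists. The 44 WT peaks had a median of 64.5 reads (range 37 to 165), against 61 for all WT peaks. Their median width was 534 bp, against 516 bp.

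A WT peak is called kept when it shares 1 bp or more with a peak of the KO list, and WT-only when it shares none. Of the 44 WT peaks, 20 (45.5%, 30.4 to 61.2) were kept, against 39.1% of all WT peaks, and 14 members had a kept peak, against 30.0% of all genes. All WT peaks of the same reads would give 18.3 kept of 44, which is near the members' own count. Counts given below as from their reads were obtained in the same way. The kept peaks had a median of 89 WT reads (45 to 165) and the 24 WT-only peaks a median of 53 (37 to 75). All 13 member peaks with at least 80 WT reads were kept, and so were 91.1% of all WT peaks from 80 reads. Below 60 reads, 1 of 20 member peaks was kept, the peak of 45 reads in Foxm1. Of all WT peaks, 1.27% were kept below 40 reads, 3.82% from 40 to 49 and 13.4% from 50 to 59. Of the 23 KO peaks, 22 overlapped a WT peak, against 99.0% of all KO peaks. The exception was a peak of 39 reads inside Espl1, 7001 bp after the start.

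**Figure D2:**
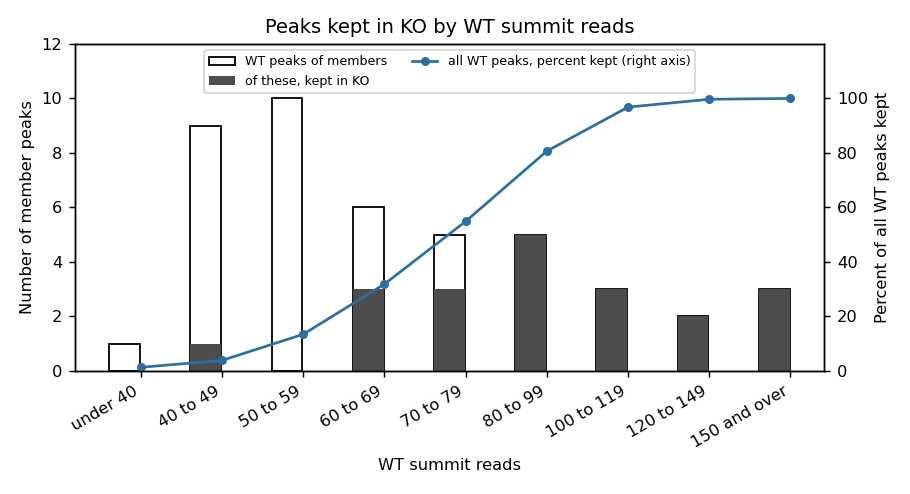
Number of WT peaks linked to mitosis genes (open bars) and of those kept in KO (filled bars) by WT summit reads (x axis), with the percent of all WT peaks that were kept (line, right axis). All member peaks from 80 reads were kept, while 1 of 20 under 60 reads was. The line stands at 80.7% or above from 80 reads and at 13.4% or below under 60.

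Near the start of the member, within 2 kb, lay 16 of the 44 WT peaks (36.4%, 22.4 to 52.2), against 26.4% of all WT peaks near the start of a gene linked to them. The start came from RefSeq, or from either end of the span for Aurkb, Ccna2, Foxm1 and Tpx2, which have no start in the table. Such a peak was present at 15 of 33 members (45.5%, 28.1 to 63.6), against 36.8% of all genes. Of the 16, 9 summits lay within 300 bp of the start. Where the strand was known, 8 lay before the start and 5 after it. These summit positions were not counted over all WT peaks, so they cannot be read as particular to mitosis genes. In KO, 8 of 23 peaks were near a start (34.8%, 16.4 to 57.3), against 21.7% of all KO peaks. Of the 28 distal WT peaks, 13 lay inside the span and 15 outside it. Over near and distal peaks together, 21 of 44 summits lay inside a span (47.7%, 32.5 to 63.3), against 53.3% of all WT peaks.

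The median was 65 reads for near peaks (41 to 147) and 63 for distal ones (37 to 165). Of the near peaks 7 of 16 were kept (43.8%, 19.8 to 70.1), against 31.9% of all WT peaks near a start and 6.18 from their reads. Of the distal peaks 13 of 28 were kept (46.4%, 27.5 to 66.1), against 41.8% of WT peaks elsewhere and 12.1 from their reads. These intervals overlap, so the counts give no order between near and distal sites. The median log2 ratio of KO to WT reads was -0.85 at kept near peaks and -0.86 at kept distal ones. It was below -1 at 1 of 7 kept near peaks, that of Kif23, against 40.1% of all kept WT peaks near a start. Among kept distal peaks it was below -1 at 6 of 13, against 30.9% of kept peaks elsewhere. The difference between near and distal peaks was not tested. Near peaks had a median width of 562 bp and distal ones of 431 bp, against 581 and 498 bp for all WT peaks. A kept near peak was present at Anln, Birc5, Ect2, Kif11, Kif23, Mad2l1 and Ncaph, and the kept peaks of 7 other members were all distal.

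**Figure D3:**
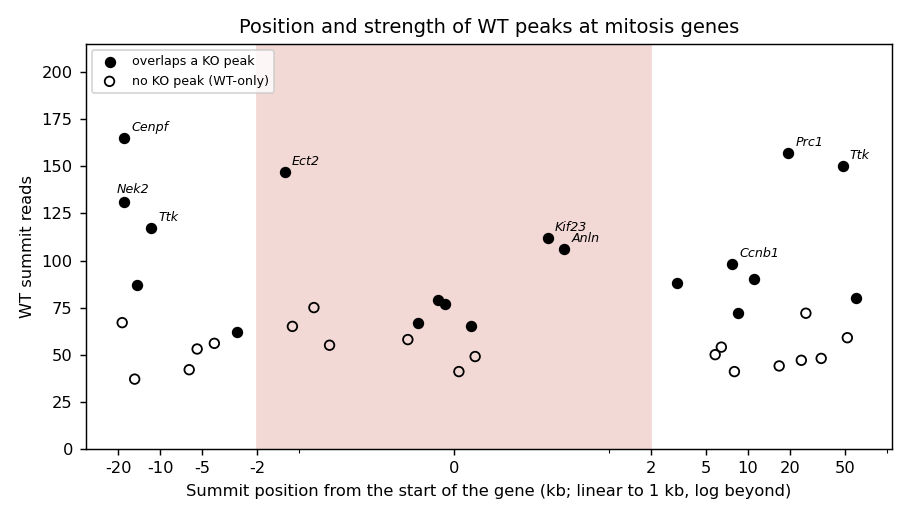
Position of the summit from the start of the gene in kb (x axis, linear to 1 kb and logarithmic beyond) against WT summit reads (y axis) for the 38 member peaks with a start and strand in the reference. Filled points were kept in KO and open points were WT-only; the shaded band marks 2 kb either side of the start, and peaks above 100 reads stand on both sides of it.

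Among cyclins and entry kinases, 6 WT peaks were linked to 3 of 8 members, against 53.2% of all genes, and 3 of the peaks were kept, against 2.43 from their reads. Ccnb1 encodes cyclin B1, the partner of CDK1 at mitotic entry. Its strongest peak spanned the end of the gene on chromosome 13, from 100778468 to 100779298, and went from 98 reads in WT to 47 in KO, with the summit 7701 bp after the start. The closest gene start to that summit was that of Cenph, a kinetochore gene, at 2886 bp. Before the start of Ccnb1, a site with 62 WT reads and 40 KO reads lay at -2812 and a WT-only peak of 55 reads at -805. Nek2, a kinase of centrosome separation, held 131 reads in WT and 63 in KO at -18092 (chromosome 1, 191802101 to 191804084). It lay 18068 bp from the span of Nek2 and 19126 bp from that of Lpgat1, so the choice of gene rests on a short difference in distance. A further Nek2 peak of 48 reads was WT-only. Ccna2, which encodes cyclin A2, had 1 WT-only peak of 53 reads inside the gene, 836 bp from an end of its span. Cdk1, Ccnb2, Plk1, Aurka and Cdc25c had no linked peak in either list.

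The transcription factor genes Foxm1 and Mybl2, whose products drive the late cell cycle program, carried weak sites. Foxm1 had peaks of 56 reads, which was WT-only, and of 45 WT and 36 KO reads, both inside the gene. Few WT peaks of that strength were kept anywhere, 3.82% from 40 to 49 reads. Mybl2, which encodes B-MYB, had 1 WT-only peak of 41 reads 31 bp after its start. These 3 peaks lay below the median of all WT peaks.

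In the chromosomal passenger complex, which corrects spindle attachment and guides cytokinesis, 4 WT peaks were linked and 1 was kept, against 1.04 from their reads. Birc5 encodes survivin, a subunit that is also known as an inhibitor of apoptosis and as a YAP target in other tissues. Its promoter peak (chromosome 11, 117848916 to 117849539) held 77 reads in WT against 56 in KO, and a peak of 56 reads at -4079 was WT-only. The log2 KO to WT ratio at the promoter was -0.54 (95% counting interval -1.13 to 0.05), and 91.8% of kept WT peaks within 10 reads of it had a lower ratio. Aurkb, the kinase of the complex, had 2 WT-only peaks, of 64 reads 4498 bp outside its span and of 43 reads 37 bp from an end of it. Cdca8, which encodes borealin, had none.

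Kinetochore and checkpoint genes carried the most kept peaks, 7 of 9, against 5.76 from their reads. Ttk, which encodes the checkpoint kinase MPS1, had 4 peaks spread over chromosome 9, all kept. The strongest (83881991 to 83883312) held 150 reads in WT and 99 in KO and lay 9962 bp beyond the end of the span. Upstream, at -11558 (83822667 to 83823549), WT had 117 reads and KO 57. The peak inside the gene had 90 and 54 reads, and the farthest one, 59338 bp after the start, had 80 and 51. The 2 peaks beyond the gene had the start of Bckdhb, an enzyme gene of amino acid breakdown, as the closest start. Cenpf, a kinetochore gene, had 3 peaks, all before its start. The strongest peak of the members, on chromosome 1 from 189704956 to 189706546, had 165 WT reads and lay at -18148. In KO it was split into 2 peaks of 72 and 66 reads. A neighbouring Cenpf peak had 87 WT and 53 KO reads, and another, of 37 reads, was WT-only. Ptpn14, which encodes a phosphatase known to restrain YAP, was the next gene, 21982 bp from the strongest summit against 18127 bp for Cenpf. Mad2l1, the checkpoint gene of MAD2, carried 65 reads in WT and 42 in KO 107 bp after its start. Bub1b, which encodes BUBR1, had a WT-only peak of 49 reads 136 bp after its start. Bub1, Cenpa and Cenpe had no linked peak.

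At anaphase onset, Cdc20, the activator of the ligase APC/C, had the strongest WT-only peak of the members, with 75 reads at -906 on chromosome 4 from 118437996 to 118438541. Of all WT peaks from 70 to 79 reads, 54.9% were kept. Espl1, which encodes separase, the protease that releases sister chromatids, had 3 peaks inside the gene. They had 72, 54 and 41 WT reads, and the first was kept with 35 KO reads, a log2 ratio of -1.30 (-2.06 to -0.53).

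Among genes of chromosome structure, 1 of 6 WT peaks was kept, against 1.40 from their reads. Ncaph, a condensin subunit, had a kept promoter peak of 67 WT and 46 KO reads at -236 and a WT-only peak of 72 reads 26007 bp after the start. Mki67, which encodes the proliferation marker Ki-67, had 3 WT-only peaks of 67, 47 and 42 reads, none near its start. The nearest KO summit to the 67-read peak was 252574 bp away. Top2a, the topoisomerase that untangles chromosomes, had 1 WT-only peak of 53 reads at -5422, and Ncapg had none.

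Spindle motors and microtubule binders had 9 WT peaks, of which 3 were kept, against 3.41 from their reads. Prc1, which bundles microtubules of the spindle midzone, went from 157 reads in WT to 61 in KO at a site on chromosome 7 (80313393 to 80314515). The summit lay 19348 bp after the start, inside the spans of both Prc1 and Rccd1. Its promoter peak of 58 reads at -299 and a further peak of 44 reads were WT-only. Kif23, the motor of the midbody, had 112 reads in WT and 53 in KO 605 bp after its start (chromosome 9, 61945906 to 61947120). A Kif23 peak of 50 reads farther inside the gene was WT-only. Kif11, the motor that separates spindle poles, had its promoter peak of 79 WT and 46 KO reads at -102 and WT-only peaks of 65 and 59 reads. The last of these lay 6843 bp from Hhex and 6135 bp from Kif11. Tpx2, an activator of Aurora A, had a WT-only peak of 51 reads 198 bp from an end of its span, and Kif20a had none.

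The cytokinesis genes Ect2 and Anln kept 3 of 3 peaks, against 2.77 from their reads. Ect2 encodes the exchange factor that switches on RhoA at the cleavage furrow. Its peak, on chromosome 3 from 27153850 to 27155436, had 147 WT reads at -1278, and the KO list held 2 peaks there, of 86 and 49 reads. The next WT summit was 319223 bp away, the second most isolated of the members' peaks after Mad2l1, at 319883 bp. Anln encodes anillin, a scaffold of the contractile ring. It had peaks of 106 WT and 59 KO reads 713 bp after its start and of 88 and 58 reads 3097 bp after it. For both summits the closest start was that of the neighbouring gene 9530077C05Rik. A further WT peak of 64 reads fell in the Anln promoter window but was linked to that neighbour.

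**Figure D4:**
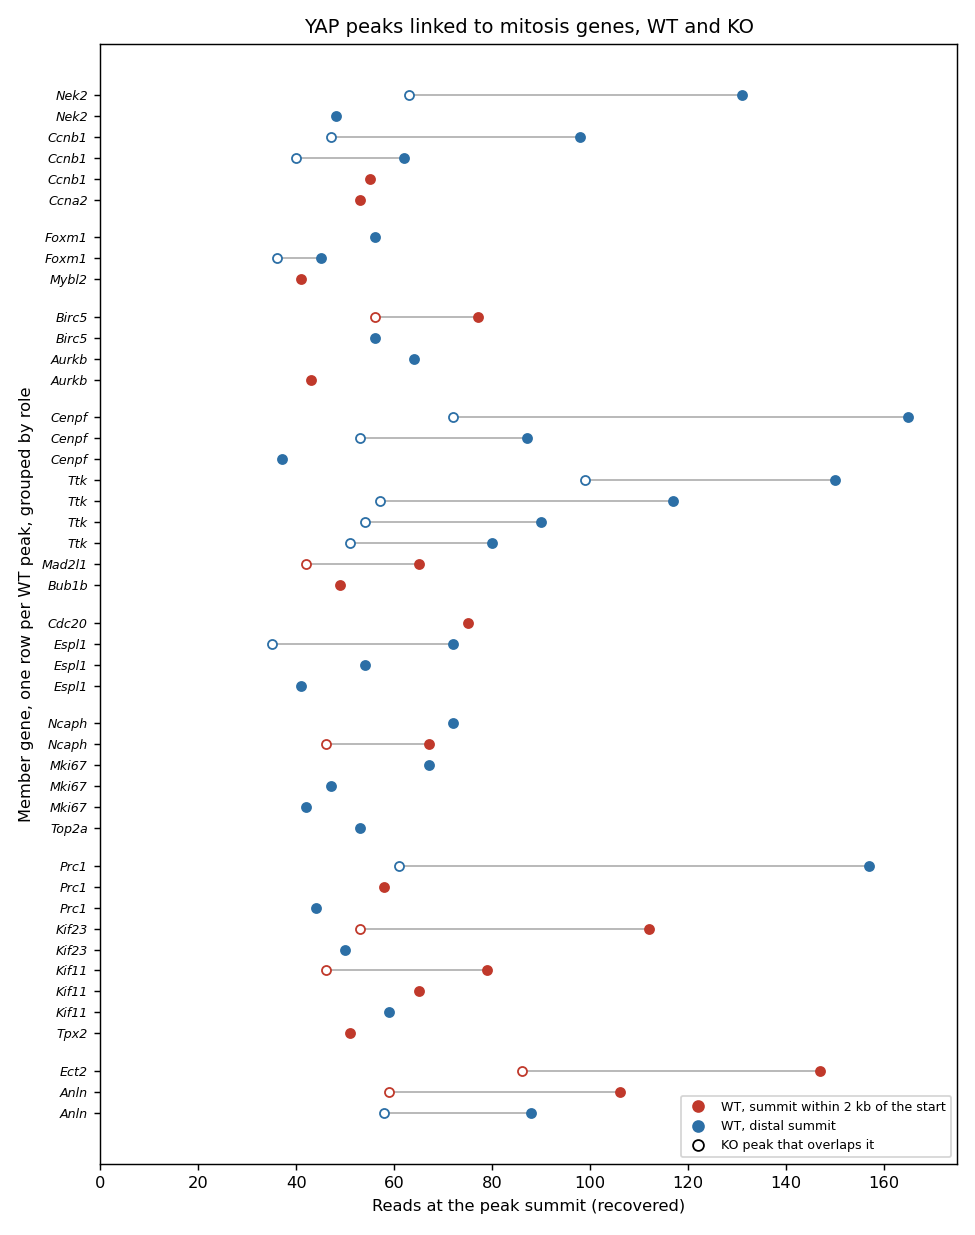
Summit reads (x axis) of each of the 44 WT peaks linked to a mitosis gene (filled points, 1 row per peak, grouped by the role of the gene) and of the strongest KO peak that overlaps it (open points). Red marks summits within 2 kb of the start and blue distal ones; every open point lies left of its filled point, and rows without an open point are the 24 WT-only peaks.

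At all 20 kept peaks, the KO summit held fewer reads above background than the WT summit, as did 99.5% of all kept WT peaks. The log2 KO to WT ratio had a median of -0.85 (range -1.52 to -0.42), against -0.88 for all kept peaks. The interval from counting alone lay below 0 at 17 of the 20, against 84.6% of all kept WT peaks. The exceptions were Birc5, Ncaph and Foxm1, with upper bounds of 0.05, 0.01 and 0.41. The ratio was below -1 at 7 of 20, against 32.9% of all kept peaks. Among member peaks with at least 80 WT reads, 6 of 13 were below -1, against 39.8% of all, and the median was -0.96, against -0.93. Among those with at least 120 reads, 3 of 5 were below -1, against 30.7%, with a median of -1.19 against -0.88. A weak WT site enters this comparison only if a KO peak was called, which needs at least 29 KO reads, the lowest in that list.

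The lowest ratio was at the Prc1 peak, where KO reads above background were 34.9% of WT, a log2 value of -1.52 (-2.01 to -1.03). Of the 786 kept WT peaks within 10 reads of it, 0.636% had a lower ratio. The Cenpf peak of 165 reads followed, at -1.32 (-1.77 to -0.87), with 2.65% of 641 such peaks lower. Both sites thus had a lower ratio than most sites of their strength. At Espl1, 3.91% of peaks of like strength were lower. Ccnb1, Kif23, Nek2 and the upstream Ttk peak lay between -1.24 and -1.18, with 16.9 to 23.1% of peaks of like strength lower. The highest ratio among the strong peaks was at the 150-read Ttk peak, at -0.65 (-1.05 to -0.25), with 87.3% lower. The kept peaks of Ttk thus ranged from -1.18 to -0.65, with overlapping counting intervals. These positions were read after the values were seen and carry no test.

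**Figure D5:**
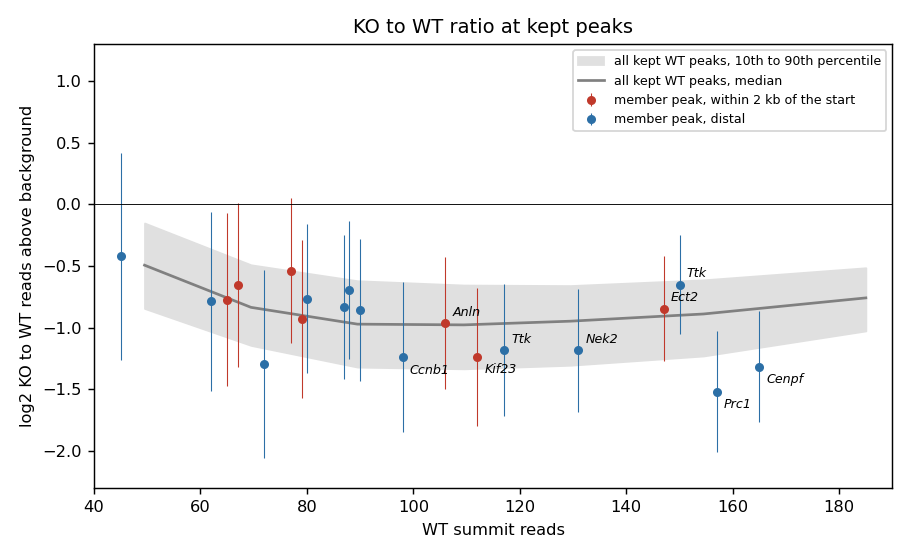
log2 ratio of KO to WT summit reads above background (y axis) against WT summit reads (x axis) for the 20 kept member peaks, with 95% intervals from counting. The grey band and line are the 10th to 90th percentile and the median of all kept WT peaks by reads; the Prc1 peak, the 165-read Cenpf peak and the Espl1 peak lie below the band.

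The KO summits lay close to the WT summits, at a median of 54.5 bp and at most 157 bp. All 20 strongest KO peaks were narrower than the WT peak they overlapped, with medians of 400 and 658.5 bp. The same held for 96.0% of all kept WT peaks, with medians of 451 and 687 bp. Another WT summit lay within 5 kb of 22 of the 44 (50.0%), against 48.2% of all WT peaks. Of the 15 distal peaks outside a span, 10 had another protein-coding gene less than 2 times as far away. For 8 of the 44, the closest gene start belonged to another gene. Neither of these neighbour counts was made over all WT peaks, so neither can be read as particular to mitosis genes.

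The 11 members without a linked peak had spans with a median of 17767 bp, against 28819 bp for the 22 with one. Over all members the median was 21815 bp, against 17329 bp for all protein-coding genes. The shares of genes with a linked peak were not adjusted for span length. The closest WT summit lay 10867 bp from Aurka, where it was linked to Fam210b, and 19258 bp from Kif20a, where a kept peak of 95 reads was linked to Cdc23. For Cdc25c it lay 25733 bp away, for Bub1 51645 bp, for Cenpa 56487 bp and for Cdk1 63449 bp. It was 67399 bp for Cdca8, 82169 bp for Ccnb2 and 92200 bp for Plk1. Only Cenpe and Ncapg had no WT summit within 100 kb, at 121024 and 149551 bp.

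Other genes of cell division were counted in 7 lists, where the share of genes with a WT peak ran from 65.2% to 92.3%, beside 66.7% of the members. The DNA replication list had a WT peak for 25 of 30 genes (83.3%, 65.3 to 94.4), the list of MuvB and its partners for 12 of 13 and APC/C genes for 16 of 19. It was 14 of 19 for cohesin and condensin, 18 of 23 for kinetochore and checkpoint genes, 15 of 23 for spindle and cytokinesis genes and 18 of 23 for entry and exit kinases and phosphatases, against 53.2% of all genes. The 95% exact interval included 53.2% for the spindle and cytokinesis list (42.7 to 83.6) and for cohesin and condensin (48.8 to 90.9), and lay above it for the other lists. These intervals cover counting error over genes of 1 pooled list, and genes are not replicates. The lists were chosen with earlier results of these data known, and their difference from all genes was not tested. Near a start lay 54.1% of the 37 peaks of replication genes and 50.0% of the 22 of MuvB and its partners. The share was 55.6% of the 27 of APC/C genes and 52.2% of the 23 of kinetochore genes. The shares were 36.4% of 33 for cohesin and condensin, 34.8% of 46 for spindle genes and 30.8% of 65 for kinases, against 26.4% of all WT peaks. Kept shares ran from 23.9% for spindle genes (11 of 46, against 13.2 from their reads) to 37.0% for APC/C genes (10 of 27, against 10.2). The kept share of all WT peaks was 39.1%. Kept counts were 11 for replication, against 10.8 from their reads, and 8 for MuvB and its partners, against 8.70. They were 11 for cohesin and condensin, against 11.8, 8 for kinetochore genes, against 6.03, and 22 for kinases, against 24.0. The median log2 ratio at kept peaks lay between -1.06 for the spindle list and -0.69 for the APC/C list, against -0.88 for all kept peaks.

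The strongest peaks in these lists were mostly distal, as were WT peaks in general, of which 26.4% lay near a start. The distal share among all strong WT peaks was not counted, so this cannot be read as particular to these lists. Wee1, the kinase that holds CDK1 inactive, had 237 reads in WT and 178 in KO, 20892 bp away from its span. Anapc1, the scaffold subunit of the APC/C, had 221 and 154 reads 5400 bp from its span, with Anapc13 at 201 and 135 and Anapc2 at 171 and 112. Ncaph2, a condensin II subunit, had 182 and 113 reads 913 bp from its start. The core subunit genes Smc3 and Smc4, of cohesin and condensin, had 118 and 70 and 114 and 56 reads. Plk2 had 157 and 96 reads and Cdc25a, a phosphatase that activates CDKs, 153 and 93. In the list of MuvB and its partners, Rbbp4 had 137 and 78 reads and Tfdp2 127 and 74, and Myb, a relative of Mybl2, 113 and 68. In the kinetochore list, Nuf2 had 137 and 80 reads and Mad1l1 120 and 57, and Pmf1 had 98 and 42 reads. In the replication list, Gins2 had 121 and 62 reads and Rrm2, a subunit of ribonucleotide reductase, 102 and 52, while Chaf1a, of a histone chaperone, had 94 and 59. Septin9 led the spindle list with 132 and 57 reads, a log2 ratio of -1.37, and Tacc3 had 100 and 66 reads 21 bp from its start. Kif4, a chromosome motor gene, had 86 and 56 reads.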

How the data were processed

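Peak lists of 1 YAP ChIP sample per genotype were used. Per the submitters' processing notes, Trimmomatic 0.36, SAMtools 1.5 and MACS2 2.1.1 were used with build mm10; what each did, the aligner, the control and any filters were not given in the sources used here. In layout, each deposited list has 10 columns and no header: the score is 10 times the −log10 q, truncated, the fold is the authors' ratio of summit signal to background, and −log10 p and −log10 q are deposited per peak (lowest −log10 q just above 2). Per the labels, 25 to 50 M reads were sequenced per sample.

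Summit reads were solved from fold and −log10 p by a search for the scaling under which a whole number of reads returns the p-value within 0.002. This held for 100% of peaks at scalings of 0.694 (WT) and 0.842 (KO), against 0.930% and 0.397% with the scaling 3% off, and the even-spread background was 9.63 reads in both, so reads are set side by side on that common scale. The value of 9.63 was the background at 28.8% of WT and 40.5% of KO peaks, and other peaks had another local value. ChIP efficiency was not measured, and the common scale does not correct for it. The procedure was tested on simulated data made with the same formulas. Log2 ratios use reads above 9.63, with the strongest overlapping KO peak, and 95% intervals from Poisson counting (1.96 SE); shares have exact Clopper-Pearson intervals. Reads are not checked for duplicate molecules here, so intervals cover counting error only. "From their reads" is the count that the kept share of all WT peaks in the same bins of summit reads would give.

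Gene spans came from RefSeq GRCm38.p6 and starts from its promoter table, in which overlapping windows of opposite strands were reverse complements in 835 of 835 cases. The members and lists were chosen with earlier results of these data known. Per member, the peak with the highest score and every peak within 2 kb of the start are described, and per other list the 3 genes with the highest-scoring peaks. Values were computed with Python 3.11.15, numpy 2.4.6, pandas 2.3.3 and scipy 1.17.1. Alternatives to the overlap, link distance, peak limits and ratio were tried.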

Additional observations from a re-analysis of the deposited data

How the results depend on the processing

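Of 32 alternatives over the 5 main values, 27 stayed within the interval of the reported value and 5 moved beyond it. Linking by the nearest start and the limit of 50 reads in both lists were chosen after seeing the data, as was leaving out Ttk, Anln and Ccnb1 from the ratio (median -0.89). The share of members with a WT peak was 45.5% with summits inside the span only, against 39.7% of all genes, and 36.4% when only the 14879 highest-scoring WT peaks were used, against 31.1%. The share of WT peaks kept was 29.5% (13 of 44) with 50% reciprocal overlap, against 32.1% of all WT peaks, under which the strongest peaks of Cenpf, Prc1, Ect2 and Kif23, the upstream peak of Ttk and the promoter peaks of Mad2l1 and Ncaph were not kept, each with no single KO peak over 50% of the WT peak; at Cenpf and Ect2 the KO list holds 2 peaks, which together covered 73.7% and 69.7%. It was 94.4% (17 of 18), against 77.8%, with the reduced WT list, which holds only higher-scoring peaks, and Cdc20 was the exception. The median ratio of KO to WT reads (log2) was -0.76 without background subtraction, as over all kept peaks, by construction of the ratio. The share near a start was 31.8% within 1 kb and 50.0% within 5 kb. With the nearest gene start in place of the nearest span, 17 of 47 peaks were kept and 22 members had a WT peak. Neither these values nor the shares within 1 kb and 5 kb were counted over all WT peaks or all genes. Peaks were called from 28 WT and 29 KO reads upward, and KO reads at WT-only sites are not in the lists. No paired analysis was possible because WT and KO have 1 list each, and no replicate could be left out.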
